A study of Homo sapiens with 12 samples.

Results

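The autophagy core machinery and its cargo receptors were examined in 786-O cells, a human renal carcinoma line, as 42 genes taken by symbol from the gene count table of 17085 genes. The genes comprised 5 of the initiation kinase complex, 6 of the class III PI3-kinase complexes, 8 that supply membrane or bind PI3P, 10 conjugation enzymes, 5 of the ATG8 family, 5 cargo receptors and 3 that act at fusion or as an ATG8 partner. Wild-type 786-O cells had received vehicle (DMSO), everolimus, SGI-1027 or both drugs together (the combination) for 24 h, with 3 RNA libraries in each of the 4 groups. SGI-1027, an inhibitor of DNA methyltransferases, was given at 1.5 µM. For everolimus, an inhibitor of the kinase complex mTORC1, the sample characteristics and the published methods give 5 µM in both groups that received it, whereas the treatment protocol in the sample records gives 10 µM for everolimus alone and 5 µM in the combination. By that protocol alone, the doses of everolimus would differ wherever the combination is set beside everolimus. All libraries came from 1 cell line, and no label says that they came from separate cultures, so p values measure the spread between these libraries, which may be technical.

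Autophagy encloses cytoplasm in a double membrane, the autophagosome, and delivers it to lysosomes for breakdown. A kinase complex around ULK1 starts the process, a lipid kinase complex around PIK3C3 and BECN1 makes the lipid PI3P at the site, and a pair of ubiquitin-like conjugation reactions attaches ATG8 proteins (LC3 and GABARAP) to the growing membrane. Receptors such as SQSTM1 (p62) tie cargo to ATG8 proteins and are themselves degraded with it. The kinase complex mTORC1 phosphorylates ULK1 and ATG13 and so holds initiation back, and everolimus lifts part of that restraint. The measurements here are of RNA only, and give neither protein amounts nor the flux through the pathway.

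Library totals lay between 37046231 and 41516976 counts, and the TMM scaling factors between 0.99 and 1.012. Between replicates, the chi-square of the counts per gene was 10.4 and 13.3 for the pairs with DMSO replicate 1 and 3.62 for the other DMSO pair, 16.5 and 16.2 for the pairs with SGI-1027 replicate 3 and 3.05 for the other SGI-1027 pair, and 3.37 to 5.54 in the other groups, so these 2 libraries stood apart from their groups. All 8 markers of the cell line fixed for the check (among them PAX8, VIM and KRT18) were detected in each of the 12 libraries. The leukocyte markers PTPRC and CD3E reached at most 1 count in any library. CD68, a lysosomal membrane protein gene that also marks macrophages, was at 19 to 27.2 FPKM in DMSO, 33 to 36 in everolimus, 45 to 65.8 in SGI-1027 and 60.6 to 65.7 in the combination. The 3 endothelial markers together stayed at or below 0.0928 FPKM and the 2 hepatocyte markers at or below 0.0588 FPKM.

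Autophagy transcripts took a larger share of the libraries in every treated group than in DMSO. The members together held 0.234% to 0.237% of all counts in the DMSO libraries, 0.304% to 0.31% in the everolimus libraries, 0.317% to 0.32% in the SGI-1027 libraries and 0.367% to 0.373% in the combination libraries. The ranges of the 4 groups did not overlap. SQSTM1 supplied much of the gain: without it the shares were 0.196% to 0.2%, 0.242% to 0.248%, 0.235% to 0.239% and 0.249% to 0.255%, still without overlap, with SGI-1027 then below everolimus. Per length, SQSTM1 was the most abundant member in DMSO at 115 ± 1.77 FPKM (SD, n = 3), followed by GABARAP at 72.9 ± 1.57, ATG101 at 42 ± 2.79, ATG9A at 37.9 ± 2.09 and VMP1 at 37.4 ± 2.23. The levels of the last of these, ATG9A and VMP1, differed by less than their SD. At the other end of the order were UVRAG at 1.35 ± 0.0716 FPKM, ULK2 at 0.719 ± 0.0884 and ATG10 at 0.599 ± 0.0145. MAP1LC3A, the LC3A gene, had 0 counts in all DMSO and combination libraries and at most 6 counts in any library, so it did not pass the filter on low counts and was not tested. The other 41 members were tested.

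Most members rose against DMSO under each treatment, and a smaller set, largely conjugation enzymes, fell. A member was called where edgeR's quasi-likelihood test gave a Benjamini-Hochberg adjusted p under 0.05 over the 12841 tested genes. Everolimus raised 23 and lowered 9 of the 41 members, where 27.2% of all tested genes were called higher, 29.2% lower and 56.4% in either direction. SGI-1027 raised 21 and lowered 9, against 32% and 30.6% of all tested genes (62.6% together), and the combination raised 23 and lowered 9, against 32.8% and 33.4% (66.2% together). Counted instead by libraries that do not overlap with DMSO in CPM, 25, 22 and 24 members lay above, where 30.6%, 32.5% and 34.5% of all tested genes did, and 8, 10 and 9 lay below, where 32.3%, 30.7% and 34.7% did. The members' median log2 fold change was 0.31, 0.21 and 0.25 in these comparisons, and that of all tested genes was 0, 0.02 and 0.01. With upper-quartile scaling in place of TMM, the everolimus count became 26 higher and 4 lower. That scaling also moved all tested genes upward, to a median log2 fold change of 0.08 after everolimus, 0.07 after SGI-1027 and 0.06 in the combination. Without DMSO replicate 1, which stood apart, the counts higher and lower were 23 and 8 after everolimus, 21 and 11 after SGI-1027 and 21 and 7 in the combination, and without SGI-1027 replicate 3 they were 23 and 10 after SGI-1027. These comparisons share the 3 DMSO libraries.

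The changes were modest in size. At the study's cut-off for a differentially expressed gene, an unadjusted p under 0.05 together with a log2 change of 1 or more in either direction, 2 members were higher after everolimus (GABARAPL1 and WDR45), 2 after SGI-1027 (SQSTM1 and WDR45) and 4 in the combination (SQSTM1, WDR45, EPG5 and ATG14). No member was lower at this cut-off in any of these comparisons, and of all tested genes 3.89%, 6.25% and 7.25% passed it upward and 0.903%, 1.07% and 2.71% downward. With edgeR at the adjusted threshold alone, 9 members were lower in each comparison.

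**Figure D1:**
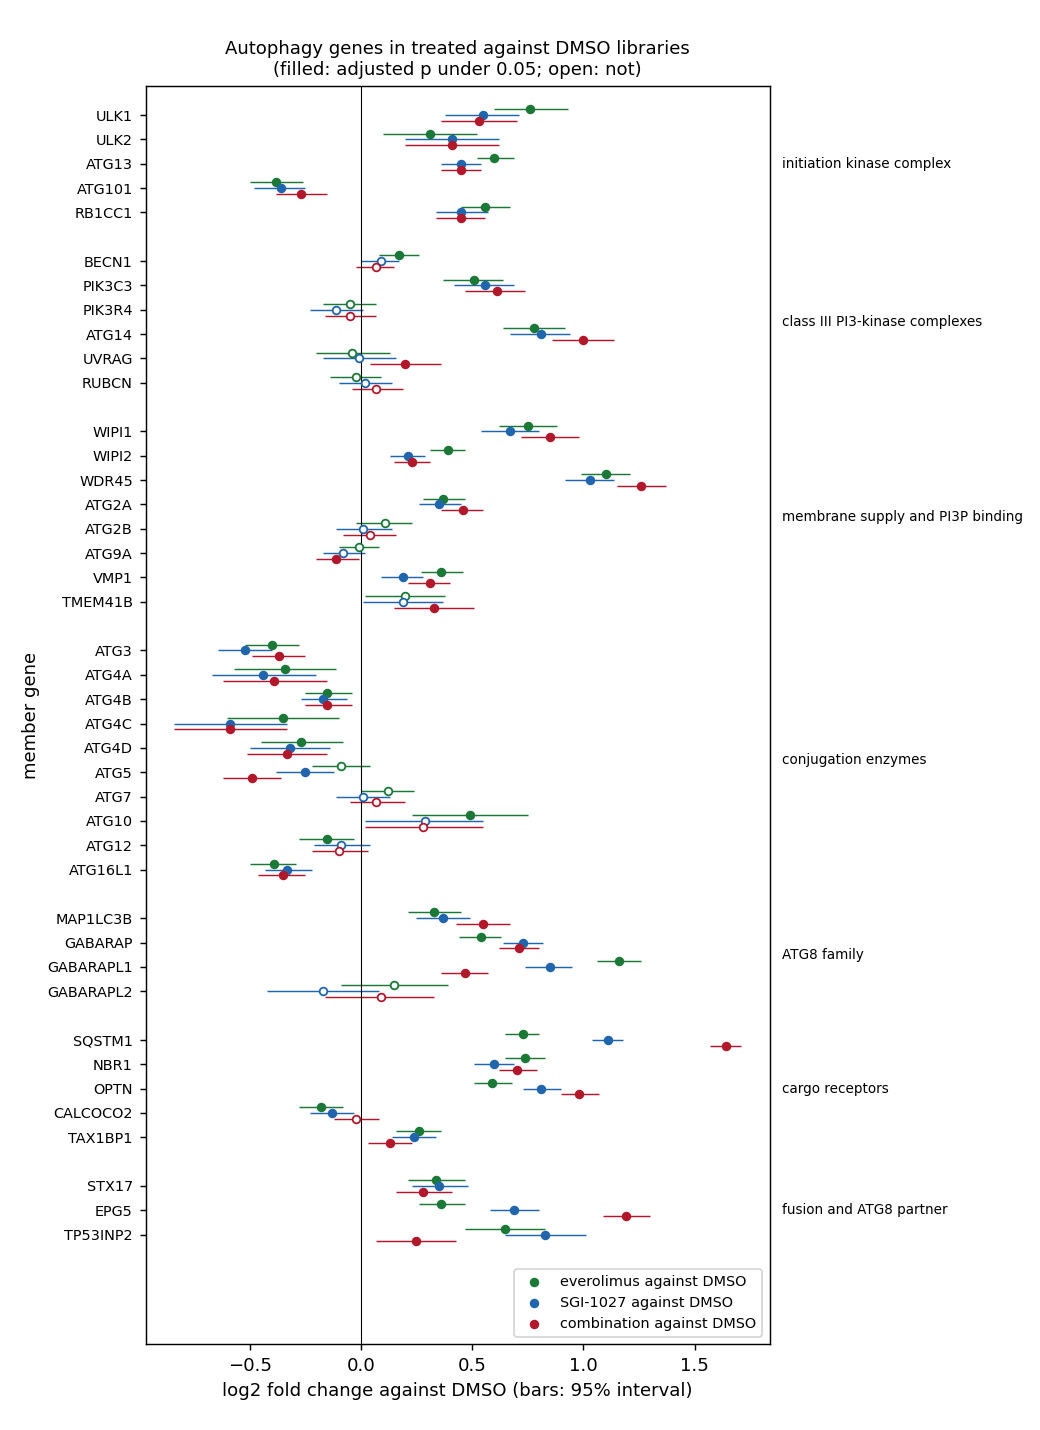
Log2 fold change against DMSO (x axis) of the 41 tested members (y axis, grouped by role) after everolimus, SGI-1027 and the combination. Filled points passed the adjusted threshold, open points did not, and bars are 95% intervals. Most points lie right of 0, SQSTM1 reaches 1.64 in the combination, and 7 of the 10 conjugation enzymes were called lower under each treatment. Among all tested genes, 29.2%, 30.6% and 33.4% were called lower.

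In the initiation kinase complex, 4 of the 5 genes rose under each of the treatments and 1, ATG101, fell. Among all tested genes, 27.2%, 32% and 32.8% were called higher after everolimus, SGI-1027 and the combination. The shares called lower were 29.2%, 30.6% and 33.4%. ULK1, the kinase itself, had mean normalized CPM (a gene's counts relative to the TMM-scaled library total) of 34.5 ± 4.41 in DMSO, 58.6 ± 0.766 in everolimus, 50.3 ± 5.69 in SGI-1027 and 49.7 ± 1.33 in the combination (SD, n = 3), with log2 fold changes of 0.76, 0.55 and 0.53. ATG13, the regulatory subunit that mTORC1 phosphorylates, rose by 0.60, 0.45 and 0.45 on the log2 scale, and RB1CC1 (FIP200), the scaffold, by 0.56, 0.45 and 0.45. The paralog ULK2 was a low transcript at 6.67 ± 0.792 CPM in DMSO and rose by 0.31, 0.41 and 0.41. Its call after everolimus did not hold without DMSO replicate 3 (adjusted p = 0.0829).

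ATG101, which stabilizes ATG13, ran against its partners. It stood at 53.6, 50.6 and 57.9 CPM in the DMSO libraries, at 43.6, 39.9 and 41.5 in everolimus, at 41.9, 43.5 and 40.5 in SGI-1027 and at 43.9, 43.9 and 47.1 in the combination. Every treated library lay below every DMSO library. The log2 fold changes were -0.38 (SE 0.06, adjusted p = 1.89e-05) after everolimus, -0.36 (SE 0.06, adjusted p = 2.06e-05) after SGI-1027 and -0.27 (SE 0.06, adjusted p = 0.000447) in the combination.

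Among the class III PI3-kinase genes, the catalytic subunit and the autophagy-specific subunit rose, and the remaining subunits changed little or were not called. ATG14, which directs the complex to the site of autophagosome formation, measured 14.4, 14.7 and 14.4 CPM in DMSO, 24.7, 24.7 and 25.4 in everolimus, 27.9, 23.6 and 24.6 in SGI-1027 and 29.1, 28.7 and 29.4 in the combination. DMSO libraries were the lowest and combination libraries the highest, without overlap, and everolimus and SGI-1027 libraries overlapped each other. Its log2 fold changes were 0.78 (SE 0.07, adjusted p = 1.51e-08), 0.81 (SE 0.07, adjusted p = 6.19e-09) and 1 (SE 0.06, adjusted p = 2.02e-10).

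PIK3C3 (VPS34), the lipid kinase, rose by 0.51, 0.56 and 0.61 on the log2 scale from 16.7 ± 1.04 CPM in DMSO. BECN1, the scaffold shared by both forms of the complex, rose after everolimus by 0.17 (adjusted p = 0.00181). Its values after SGI-1027 and in the combination were 0.09 (95% interval 0 to 0.17) and 0.07 (-0.02 to 0.15). Both were called higher under upper-quartile scaling (adjusted p = 0.00744 and 0.0175) and with limma on log2(FPKM + 1) (0.0347 and 0.0339). PIK3R4 (VPS15), the regulatory kinase subunit, had intervals of -0.17 to 0.07, -0.23 to 0.01 and -0.16 to 0.07, and RUBCN (Rubicon), an inhibitor of the UVRAG form, had -0.14 to 0.09, -0.10 to 0.14 and -0.04 to 0.19. After SGI-1027, PIK3R4 was called lower without DMSO replicate 1 (-0.16, adjusted p = 0.0193) or SGI-1027 replicate 1 (-0.15, adjusted p = 0.0465). RUBCN was called higher in the combination under upper-quartile scaling (0.13, adjusted p = 0.0466). UVRAG, which replaces ATG14 in the endosomal form, had intervals of -0.20 to 0.13 and -0.17 to 0.16 after the single drugs and was called higher in the combination, by 0.20 (adjusted p = 0.0299). Leaving out DMSO replicate 1 (adjusted p = 0.119), combination replicate 1 (0.0898) or combination replicate 2 (0.0796) ended that call.

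Genes of membrane supply and PI3P binding rose in 5 of 8 cases after either drug and in 6 of 8 in the combination. The shares of all tested genes called higher were 27.2% after everolimus, 32% after SGI-1027 and 32.8% in the combination. WDR45 (WIPI4), a PI3P-binding protein that recruits ATG2, had 19.1, 21.2 and 19.5 CPM in DMSO, 42.1, 43.7 and 42.9 in everolimus, 40.9, 41 and 40.3 in SGI-1027 and 47.5, 47 and 49.2 in the combination. All treated libraries were far above the DMSO libraries, and combination libraries lay above all others. Against DMSO, the log2 fold changes were 1.1 (SE 0.05, adjusted p = 1.17e-11), 1.03 (SE 0.05, adjusted p = 1.25e-11) and 1.26 (SE 0.05, adjusted p = 3.65e-13). WDR45 shares 757 exon bases on the same strand with its neighbour PRAF2 in the GENCODE 29 annotation, so reads there could be assigned to either gene. PRAF2 had 614 to 655 counts in DMSO libraries and 821 to 1012 in treated libraries, and its log2 fold changes were 0.58, 0.53 and 0.61.

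WIPI1, another PI3P-binding protein, rose by 0.75, 0.67 and 0.85 on the log2 scale, and its paralog WIPI2, which recruits the ATG16L1 complex, by 0.39, 0.21 and 0.23. The lipid transfer protein gene ATG2A rose by 0.37, 0.35 and 0.46. Its paralog ATG2B had intervals of -0.02 to 0.23, -0.11 to 0.14 and -0.08 to 0.16. The everolimus value of ATG2B was called under upper-quartile scaling (0.18, adjusted p = 0.0129) and without DMSO replicate 3 (0.18, 0.0173). VMP1, a lipid scramblase of the endoplasmic reticulum, rose by 0.36, 0.19 and 0.31. TMEM41B, a scramblase of the same kind, was called in the combination, at 0.33 (adjusted p = 0.00254), and was at 0.20 and 0.19 (adjusted p = 0.0551 and 0.0594) after everolimus and SGI-1027. Both of these values were called under upper-quartile scaling (0.0123 and 0.0199). The SGI-1027 value was also called without SGI-1027 replicate 3, which stood apart (0.29, adjusted p = 0.00288). ATG9A, the scramblase of the vesicles that seed the membrane, was at 144 ± 6.71 CPM in DMSO and at 142 ± 3.77, 136 ± 6.85 and 133 ± 2.42 in the treated groups. Its combination value of -0.11 had an adjusted p of 0.046, which became 0.2, 0.113, 0.135, 0.137 and 0.0502 without DMSO replicates 1 and 2 and combination replicates 1, 2 and 3, respectively. After SGI-1027, ATG9A was called lower without SGI-1027 replicate 3 (-0.12, adjusted p = 0.0227).

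The conjugation enzymes were the only role in which more genes fell than rose, at 7 lower of 10 under each treatment. The shares of all tested genes called lower were 29.2% after everolimus, 30.6% after SGI-1027 and 33.4% in the combination. ATG3, the enzyme that transfers ATG8 proteins to the lipid phosphatidylethanolamine, stood at 62.8, 59.5 and 63.6 CPM in DMSO, at 50.1, 44.6 and 46.2 in everolimus, at 42.8, 45.4 and 41.1 in SGI-1027 and at 50.9, 47.4 and 45.9 in the combination. All treated libraries were below all DMSO libraries. On the log2 scale, the changes were -0.40 (SE 0.06, adjusted p = 9.05e-06), -0.52 (SE 0.06, adjusted p = 2.81e-07) and -0.37 (SE 0.06, adjusted p = 1.58e-05).

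ATG16L1, which places the conjugation machinery on the membrane, had 60.8, 57.7 and 57.9 CPM in DMSO, 43.1, 47 and 44.2 in everolimus, 46, 48.5 and 46.1 in SGI-1027 and 44.8, 47.4 and 46 in the combination. The treated groups overlapped one another and none overlapped DMSO. Its log2 fold changes were -0.39, -0.33 and -0.35 (SE 0.05 each, adjusted p = 1.97e-06, 1.25e-05 and 4.15e-06). ATG5, part of the conjugate that binds ATG16L1, followed a different order: 45.7, 51.2 and 48.8 CPM in DMSO, 43.6, 47.4 and 46.2 in everolimus, 42, 43.3 and 37.4 in SGI-1027 and 35.3, 35.8 and 32.5 in the combination. Everolimus libraries overlapped DMSO libraries, and combination libraries lay below the libraries of every other group. Log2 fold changes against DMSO were -0.09 (95% interval -0.22 to 0.04), -0.25 (adjusted p = 0.00211) and -0.49 (adjusted p = 1.76e-06).

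The ATG4 proteases, which prime ATG8 proteins and release them from membranes, were lower in all 4 paralogs under each treatment. ATG4A had 6.47, 5.93 and 6.49 CPM in DMSO, 4.59, 5.35 and 4.94 in everolimus, 4.66, 4.42 and 4.85 in SGI-1027 and 5.16, 4.94 and 4.31 in the combination. ATG4C had 9.37, 11.5 and 11.1 CPM in DMSO, 9.78, 7.65 and 7.79 in everolimus, 7.06, 8.1 and 6.16 in SGI-1027 and 7.71, 7.02 and 6.6 in the combination. ATG4A libraries of each treated group lay below DMSO, whereas 1 everolimus library of ATG4C reached into the DMSO range. The log2 fold changes were -0.34, -0.44 and -0.39 for ATG4A, -0.35, -0.59 and -0.59 for ATG4C, -0.15, -0.17 and -0.15 for ATG4B and -0.27, -0.32 and -0.33 for ATG4D.

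Several of the everolimus calls of this role were close to the threshold. Under upper-quartile scaling the adjusted p of ATG4B, ATG4C, ATG4D and ATG12 was 0.212, 0.0595, 0.0664 and 0.265. Leaving out single libraries also moved them past 0.05: ATG4A without everolimus replicate 1 (0.0591), ATG4B without DMSO replicate 1 or 3 or everolimus replicate 1 (up to 0.0738), ATG4C without DMSO replicate 2 or 3 or everolimus replicate 2 or 3 (up to 0.0895), ATG4D without DMSO replicate 2 or everolimus replicate 1 (up to 0.096) and ATG12 without DMSO replicate 2 or 3 or everolimus replicate 2 or 3 (up to 0.162). After SGI-1027, ATG4B missed the threshold under upper-quartile scaling (0.0512). In the combination, it missed the threshold under upper-quartile scaling (0.105) and without DMSO replicate 1 or 3 or combination replicate 3 (up to 0.0631).

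ATG12, the ubiquitin-like partner of ATG5, was at -0.15 after everolimus (adjusted p = 0.0346) and had intervals of -0.21 to 0.04 and -0.22 to 0.03 after SGI-1027 and in the combination. ATG7, the activating enzyme for both conjugation reactions, had intervals of 0 to 0.24, -0.11 to 0.13 and -0.05 to 0.20. Its everolimus value was called under upper-quartile scaling (0.19, adjusted p = 0.00983). ATG10, which joins ATG12 to ATG5, was the member of this role that rose: its log2 fold change was 0.49 after everolimus (adjusted p = 0.00251) and 0.29 and 0.28 in the other comparisons with DMSO (adjusted p = 0.0534 and 0.0541), at 4.76 ± 0.156 CPM in DMSO. The latter values were called under upper-quartile scaling (0.025 and 0.0249). They were also called without SGI-1027 replicate 3 (0.40, adjusted p = 0.00867) and combination replicate 2 (0.36, 0.0318), respectively.

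Promoter sequences of ATG3, which fell, and ATG14, which rose, are shown because they were the members whose promoter window held CACGTG, the E-box core bound by TFEB, a transcription factor that drives lysosomal and autophagy genes and is itself held back by mTORC1. The windows come from RefSeq on GRCh38.p14, and run from 250 bases upstream to 50 bases downstream of each start site. They covered 36 of the 42 members in 46 windows, and RB1CC1, UVRAG, ATG4D, MAP1LC3A, STX17 and EPG5 were not matched. Each stretch below is the 120 bases directly upstream of the start site, 5′ to 3′ on the gene's strand, with CACGTG in capitals.
ATG3 (chr3:112561963-112562082, minus strand): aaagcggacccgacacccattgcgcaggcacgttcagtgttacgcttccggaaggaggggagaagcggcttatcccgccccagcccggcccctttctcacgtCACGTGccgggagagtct
ATG14 (chr14:55411831-55411950, minus strand): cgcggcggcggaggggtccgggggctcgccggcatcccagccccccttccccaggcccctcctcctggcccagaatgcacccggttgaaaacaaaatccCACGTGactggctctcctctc

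The first base of CACGTG lay at -18 in ATG3 and at -21 in ATG14, counted from the start site, and ATG3 held a further copy at 6 bases downstream. CACGTG occurred in 2 of the 46 member windows (4.35%) and in 7.26% of all 35116 promoter windows. Of the other motifs searched on both strands, TGTTTAC (a FOXO element) was in 2 member windows (WDR45 and CALCOCO2, 4.35% against 3.42% of all), TGATGNAA (an amino acid response element) in 1 (WDR45, 2.17% against 3.62%) and TGACNNNGC (an antioxidant response element) in 3 (ATG101, MAP1LC3B and CALCOCO2, 6.52% against 13.3%). These matches describe the letters in these windows and no binding was measured.

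In the ATG8 family, 3 of the 4 tested genes rose under each of the treatments, where 27.2%, 32% and 32.8% of all tested genes were called higher. GABARAPL1, a GABARAP paralog, had 35.7, 37.7 and 38.3 CPM in DMSO, 85.5, 84.9 and 79.1 in everolimus, 66.2, 68.1 and 66.6 in SGI-1027 and 53.7, 50.7 and 49.9 in the combination. The groups did not overlap, and everolimus libraries were highest, then SGI-1027, then the combination, then DMSO. Its log2 fold changes against DMSO were 1.16 (SE 0.05, adjusted p = 3.51e-12), 0.85 (SE 0.05, adjusted p = 6.49e-11) and 0.47 (SE 0.05, adjusted p = 1.44e-07).

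MAP1LC3B encodes LC3B, which the study used as a tagged reporter of autolysosome formation. The study also blotted LC3B protein in 786-O cells, and reported that its LC3B-II form built up with the dose and time of SGI-1027. MAP1LC3B RNA had 61.4, 68.8 and 71.6 CPM in DMSO, 88.2, 83.9 and 82.3 in everolimus, 87.8, 90.7 and 81.9 in SGI-1027 and 99.4, 103 and 93.4 in the combination. Everolimus and SGI-1027 libraries overlapped, DMSO libraries were below and combination libraries above them. Against DMSO, the log2 fold changes were 0.33 (SE 0.06, adjusted p = 8.38e-05), 0.37 (SE 0.06, adjusted p = 2.34e-05) and 0.55 (SE 0.06, adjusted p = 1.28e-07). The coding sequence of MAP1LC3B2 matches that of MAP1LC3B at 376 of 378 bases (99.5%), so reads could be divided between the copies. MAP1LC3B2 had 88 to 154 counts per library, and log2 fold changes of 0.51, 0.61 and 0.58.

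GABARAP rose by 0.54, 0.73 and 0.71 on the log2 scale. GABARAPL2 (GATE-16) varied most between replicates in DMSO and SGI-1027, with coefficients of variation of 17.6% and 18.9% where the members' medians were 5.11% and 4.22%, and its intervals were -0.09 to 0.39, -0.42 to 0.08 and -0.16 to 0.33. Its SGI-1027 value of -0.17 reached the threshold without DMSO replicate 1 (-0.30, adjusted p = 0.021) or SGI-1027 replicate 2 (-0.29, adjusted p = 0.0442).

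Per length, the summed ATG8 transcripts were 144 ± 5.99 FPKM in DMSO (SD, n = 3), 208 ± 5.24 in everolimus, 211 ± 5.08 in SGI-1027 and 215 ± 7.13 in the combination. The sums of the treated libraries overlapped between groups (202 to 212, 207 to 217 and 207 to 221 FPKM). Their make-up differed: GABARAPL1 supplied 11.2% ± 0.187 of the sum in DMSO, 17.3% ± 0.332 in everolimus, 13.7% ± 0.157 in SGI-1027 and 10.5% ± 0.37 in the combination, and GABARAP supplied 50.8% ± 2.67, 51% ± 0.811, 57.3% ± 2.63 and 56.2% ± 0.468.

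**Figure D2:**
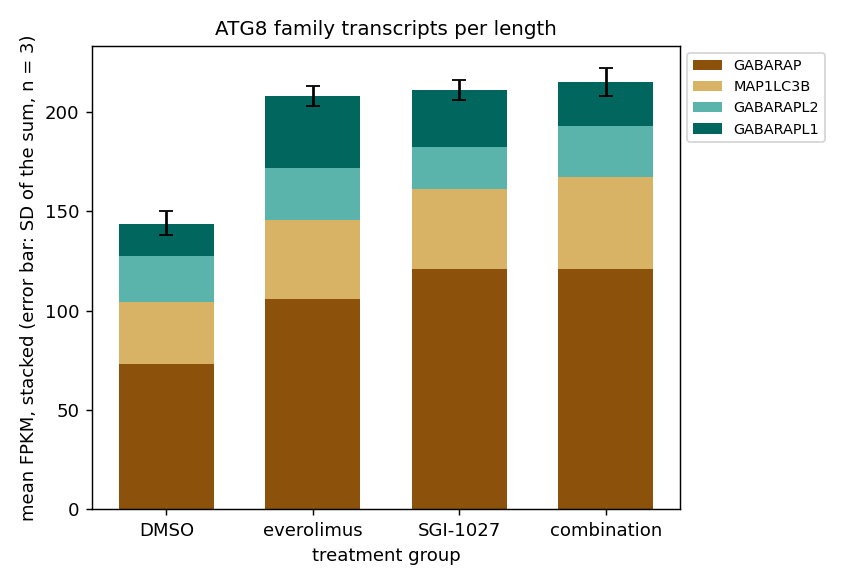
Mean FPKM of GABARAP, MAP1LC3B, GABARAPL2 and GABARAPL1 stacked by treatment group (x axis), with the SD of the sum over 3 libraries as error bars. The sum rose from 144 FPKM in DMSO to between 208 and 215 in the treated groups, and the GABARAPL1 segment was tallest after everolimus.

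Cargo receptors held the member with the greatest change. SQSTM1 had 380, 380 and 374 CPM in the DMSO libraries, 636, 619 and 619 in everolimus, 809, 796 and 838 in SGI-1027 and 1150, 1170 and 1210 in the combination. The 4 groups did not overlap, and each stood in that order. The fold changes against DMSO were 1.65-fold (log2 0.73, SE 0.03, adjusted p = 9.45e-12), 2.15-fold (log2 1.11, SE 0.03, adjusted p = 1.56e-14) and 3.11-fold (log2 1.64, SE 0.03, adjusted p = 1.03e-16). Per length, SQSTM1 reached 364 ± 8.52 FPKM in the combination. SQSTM1 and MRNIP overlap by 1384 exon bases on opposite strands, and MRNIP had 126 to 268 counts per library, few beside those of SQSTM1. Further members overlap a neighbour on the opposite strand, among them ATG7 (1596 bases with VGLL4), WIPI1 (539 with ARSG) and BECN1 (502 with CNTD1). The strand setting of the counting is not given, so how reads in such stretches were assigned is unknown.

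OPTN, a receptor for ubiquitin-coated cargo including mitochondria, rose by 0.59, 0.81 and 0.98 on the log2 scale, from 117 ± 3.37 CPM in DMSO to 232 ± 8.49 in the combination. NBR1, which works with SQSTM1 on protein aggregates, rose by 0.74, 0.60 and 0.70. TAX1BP1, a receptor with roles in aggregate and bacterial clearance, rose by 0.26, 0.24 and 0.13, and the last value (adjusted p = 0.0276) was not called without DMSO replicate 1 (0.137), combination replicate 1 (0.0636) or combination replicate 2 (0.0942). CALCOCO2 (NDP52), a receptor for bacteria and mitochondria, fell by 0.18 after everolimus (adjusted p = 0.00294) and by 0.13 after SGI-1027 (adjusted p = 0.021), and was at -0.02 (95% interval -0.12 to 0.08) in the combination. Its everolimus and SGI-1027 values were not called under upper-quartile scaling (adjusted p = 0.0549 and 0.158), nor was the SGI-1027 value without DMSO replicate 3 (0.0932) or SGI-1027 replicate 2 (0.0721).

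The 3 genes of fusion and ATG8 partnership rose under each treatment, where 27.2%, 32% and 32.8% of all tested genes were called higher. EPG5, a tether that brings autophagosomes to late endosomes and lysosomes, had 53.2, 58.9 and 60.3 CPM in DMSO, 72.1, 75.3 and 74.2 in everolimus, 90.9, 93.4 and 94 in SGI-1027 and 124, 135 and 135 in the combination. As for SQSTM1, the groups stood apart in the order DMSO, everolimus, SGI-1027, combination. On the log2 scale, the changes were 0.36 (SE 0.05, adjusted p = 7.9e-06), 0.69 (SE 0.05, adjusted p = 1.51e-09) and 1.19 (SE 0.05, adjusted p = 4.82e-13).

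TP53INP2 (DOR), which binds ATG8 proteins and moves from nucleus to autophagosomes, had 9.26, 8.16 and 7.75 CPM in DMSO, 12.1, 13.9 and 13.5 in everolimus, 14.3, 14.8 and 15.6 in SGI-1027 and 9.67, 10.5 and 9.83 in the combination. Its combination libraries lay just above DMSO and below both single drugs. Log2 fold changes against DMSO were 0.65 (SE 0.08, adjusted p = 3.36e-06), 0.83 (SE 0.08, adjusted p = 1.11e-07) and 0.25 (SE 0.09, adjusted p = 0.0157), and the last was not called without DMSO replicate 3 (0.0686) or combination replicate 2 (0.058). STX17, the SNARE protein of the autophagosome, rose by 0.34, 0.35 and 0.28.

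**Figure D3:**
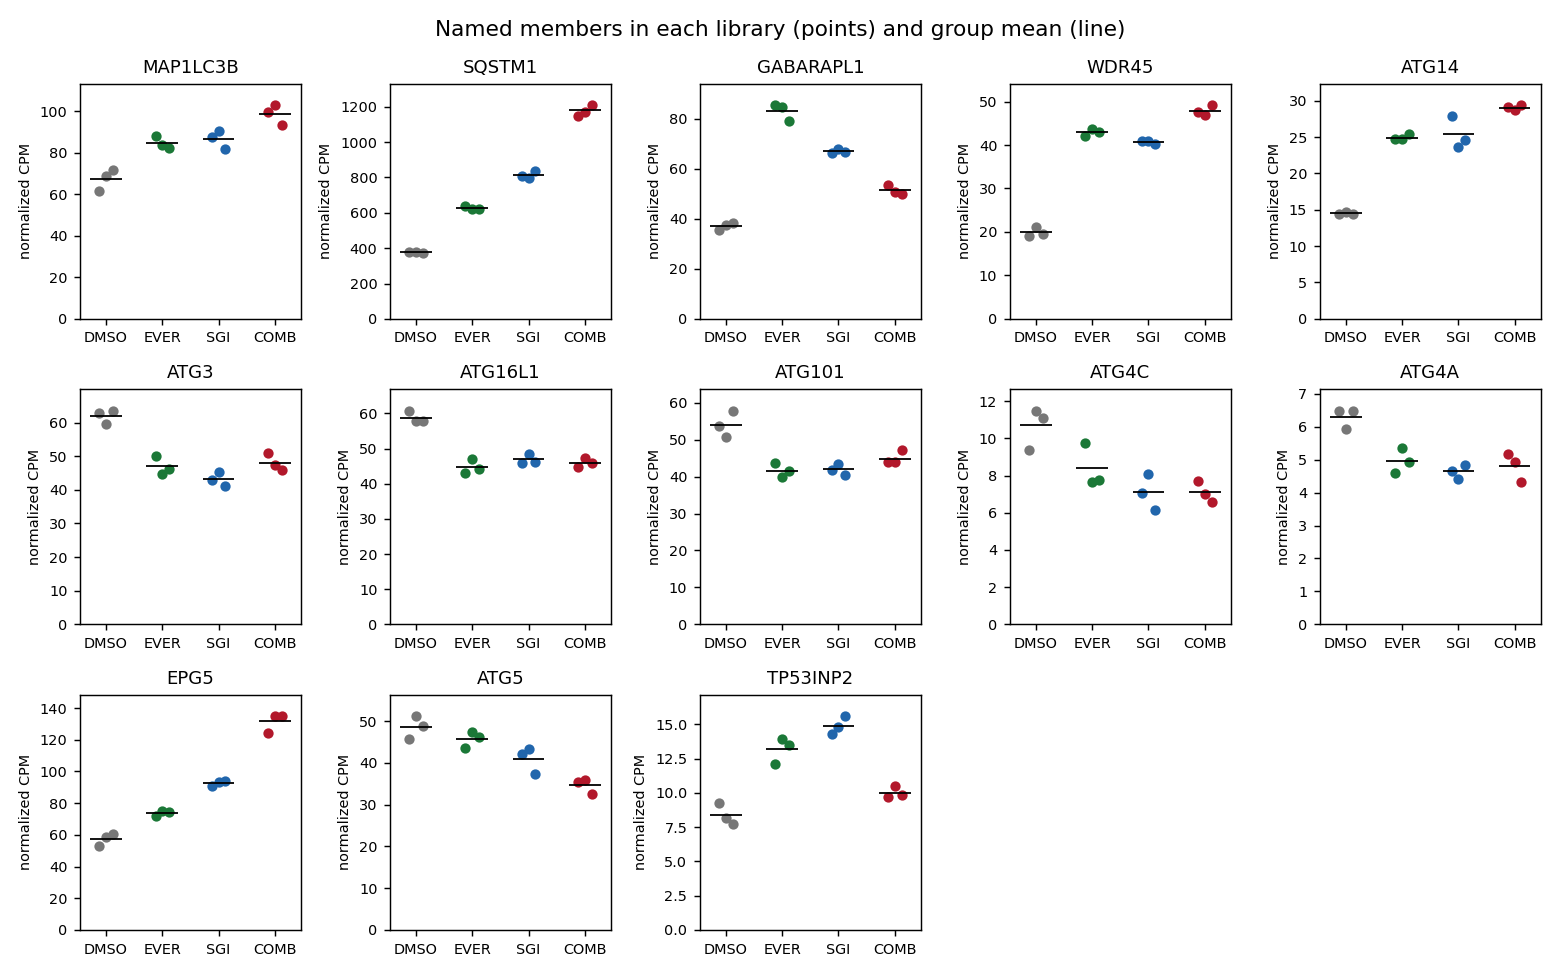
Normalized CPM (y axis, from 0) of 13 members in each library, by group (x axis: EVER, everolimus, SGI, SGI-1027, COMB, combination). Points are libraries and lines are means of 3. SQSTM1 and EPG5 step up from DMSO to the combination, ATG5 steps down, and GABARAPL1 and TP53INP2 in the combination lie between DMSO and both single drugs.

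The combination was next set beside each drug alone, which asks what the second drug added. Against everolimus, 9 members were higher, 8 lower and 24 not called, where 20.1% of all tested genes were higher, 19.2% lower and 39.3% called in all. Against SGI-1027, 7 members were higher, 3 lower and 31 not called, where 9.4% and 10.2% of all tested genes were called, 19.6% in all. Combination libraries lay wholly above everolimus libraries for 13 members and below for 11 (27% and 27.2% of all tested genes), and wholly above SGI-1027 libraries for 14 and below for 5 (17.1% and 17.5%). No member passed the study's cut-off in either comparison, which 2.44% of all tested genes passed upward and 1.46% downward against everolimus, and 0.428% and 1.21% against SGI-1027. The 8 lower calls against everolimus became 5 without everolimus replicate 1 or 3 or combination replicate 1 or 3, and the 7 higher calls against SGI-1027 became 4 without combination replicate 1 or 2. The median log2 difference of the members was 0 and 0.05, and that of all tested genes was 0 in both. These comparisons share the combination libraries.

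SQSTM1 was higher in the combination by 0.91 on the log2 scale over everolimus (adjusted p = 3.34e-13) and by 0.53 over SGI-1027 (adjusted p = 3.39e-09). EPG5 was higher by 0.83 (adjusted p = 1.96e-10) and 0.50 (adjusted p = 6.07e-07), and OPTN by 0.39 (adjusted p = 3.11e-07) and 0.17 (adjusted p = 0.00462). The excess of these 3 members over both drugs was called whichever single library was left out.

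Smaller excesses were less firm. MAP1LC3B was higher by 0.22 (adjusted p = 0.00518) over everolimus and by 0.18 (0.0288) over SGI-1027, the latter not called without SGI-1027 replicate 1 or 3 or combination replicate 1 or 2 (up to 0.136). ATG14 was higher by 0.22 (0.00857) and 0.20 (0.0334), the latter not called without SGI-1027 replicate 2 or 3 or any single combination replicate (up to 0.151). WDR45 was higher by 0.16 (0.0151) and 0.23 (0.00226), the former not called without everolimus replicate 1 (0.0603) or combination replicate 3 (0.0689). WIPI1 was higher than in SGI-1027 by 0.18 (0.0389), a call lost without SGI-1027 replicate 1 or 2 or combination replicate 1 or 2 (up to 0.154), and had an interval of -0.03 to 0.22 over everolimus.

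GABARAPL1, TP53INP2 and ATG5 were lower in the combination than after either drug. GABARAPL1 was lower than in everolimus by a log2 difference of -0.69 (adjusted p = 1.57e-09) and than in SGI-1027 by -0.38 (adjusted p = 1.4e-05). For TP53INP2 the differences were -0.40 (adjusted p = 0.000848) and -0.58 (adjusted p = 5.38e-05). For ATG5 they were -0.40 (adjusted p = 4.86e-05) and -0.24 (adjusted p = 0.0105), the latter not called without SGI-1027 replicate 2 (0.0567) or combination replicate 3 (0.0664).

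The other calls against everolimus concerned single genes. GABARAP was higher by 0.17 (adjusted p = 0.00393), CALCOCO2 by 0.16 (0.00993) and UVRAG by 0.23 (0.0216). ATG13 was lower by a log2 difference of -0.16 (0.00565), WIPI2 by -0.16 (0.00245), ULK1 by -0.24 (0.0213), TAX1BP1 by -0.13 (0.0361) and BECN1 by -0.11 (0.0493). The calls of BECN1 and TAX1BP1 were lost whichever single library of the comparison was left out (adjusted p up to 0.189 and 0.152). ULK1 was lost without everolimus replicate 1 or 3 or combination replicate 1 or 3 (up to 0.0737), UVRAG without replicate 1 or 2 of either group (up to 0.076) and CALCOCO2 without everolimus replicate 1 (0.0707) or combination replicate 3 (0.0546).

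Whether the drugs' effects added up was tested with an interaction term, the combination's log2 fold change minus the sum of both single-drug log2 fold changes. The interaction was below 0 for 20 members and above 0 for 4, and not called for 17, where 22.1% of all tested genes were below 0 and 23.6% above (45.6% together). The members' median interaction was -0.19 on the log2 scale, and that of all tested genes -0.01. Without DMSO replicate 1 the counts were 19 below and 7 above 0, and without SGI-1027 replicate 3 they were 22 and 6. By role, the interaction was below 0 for 3 of 5 initiation genes, 3 of 6 PI3-kinase genes, 5 of 8 membrane genes, 1 of 10 conjugation enzymes, 2 of 4 ATG8 genes, 4 of 5 cargo receptors and 2 of 3 fusion and partner genes. At the study's cut-off, 2 members were below 0 and none above, where 4.63% and 1.14% of all tested genes were.

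GABARAPL1 had the most negative interaction. The sum of its single-drug log2 fold changes was 2.01, the combination reached 0.47, and the interaction was -1.54 (SE 0.07, adjusted p = 1.74e-11). For TP53INP2 the sum was 1.48, the combination 0.25 and the interaction -1.23 (SE 0.12, adjusted p = 1.96e-07). For WDR45 the sum was 2.13, the combination 1.26 and the interaction -0.87 (SE 0.07, adjusted p = 3.18e-08), so the combination was still above either drug alone there, unlike in the first pair of genes.

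The positive interactions belonged to members that fell after either drug. ATG3 had a sum of -0.92, a combination value of -0.37 and an interaction of 0.56 (SE 0.08, adjusted p = 2.12e-05). ATG101 had 0.48 (adjusted p = 0.000107), ATG16L1 0.37 (adjusted p = 0.000303) and CALCOCO2 0.29 (adjusted p = 0.00145). ATG4A (0.39, adjusted p = 0.0535) and ATG4B (0.17, 0.0612) were just short of the threshold. With DESeq2 size factors in place of TMM both were called (0.0477 and 0.0492), and 6 members were then above 0. SQSTM1 came close to the sum, with 1.84 for the sum, 1.64 in the combination and an interaction of -0.19 (SE 0.05, adjusted p = 0.00253). EPG5, with a sum of 1.05 and 1.19 in the combination, had an interaction of 0.14 (95% interval 0 to 0.29, adjusted p = 0.106), which was called without DMSO replicate 1 (0.20, adjusted p = 0.0153) or combination replicate 1 (0.19, adjusted p = 0.0469). MAP1LC3B (interval -0.32 to 0.02) and ATG5 (-0.34 to 0.03) were not called. Their interactions were called under upper-quartile scaling (-0.22, adjusted p = 0.0322, and -0.23, 0.0452) and without SGI-1027 replicate 3 (-0.19, 0.0455, and -0.22, 0.0319). Upper-quartile scaling also moved the median interaction of all tested genes to -0.08.

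**Figure D4:**
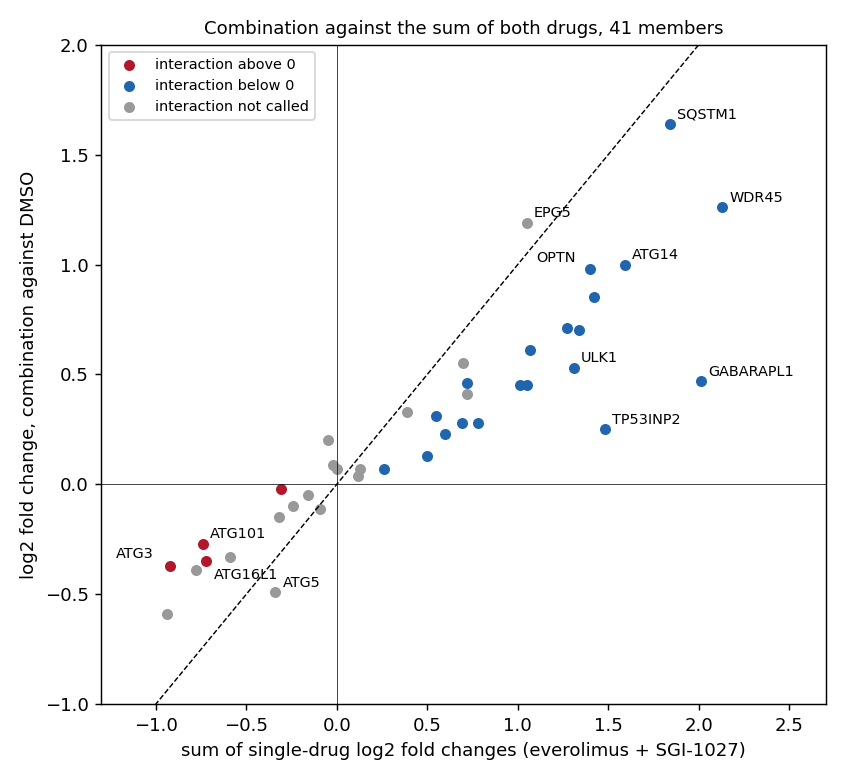
Sum of the everolimus and SGI-1027 log2 fold changes (x axis) against the combination's log2 fold change (y axis), both against DMSO, for 41 members, with the dashed line marking equality. Axes share the DMSO libraries. Blue points (20) had an interaction below 0, red points (4) above 0 and grey points (17) were not called. GABARAPL1 and TP53INP2 lie farthest below the line, and SQSTM1 and EPG5 lie near it.

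Further genes of the pathway, on 3 lists of paralogs, selective receptors and fusion factors, were examined in the same fit, and 33 of the 35 passed the filter. ATG9B and RUBCNL did not. Everolimus raised 14 and lowered 6, SGI-1027 raised 18 and lowered 7, and the combination raised 20 and lowered 7, with medians of 0.11, 0.19 and 0.28 on the log2 scale. These were 42.4%, 54.5% and 60.6% of the 33 higher and 18.2%, 21.2% and 21.2% lower, where 27.2%, 32% and 32.8% of all tested genes were higher and 29.2%, 30.6% and 33.4% lower. In the list of transport and lysosome fusion, 5, 8 and 10 of 13 genes were higher in the comparisons with DMSO and 2, 2 and 1 lower. In the list of receptors, 6, 7 and 7 of 12 were higher and 3, 4 and 4 lower, and in the list of paralogs 3 of 8 were higher each time and 1, 1 and 2 lower.

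CCPG1, a receptor for the endoplasmic reticulum, had 15.1, 17.5 and 16.4 CPM in DMSO, 52.5, 53.5 and 50.9 in everolimus, 34.6, 30.4 and 29.7 in SGI-1027 and 54.7, 49.7 and 50.7 in the combination. Everolimus and combination libraries overlapped each other above SGI-1027 and DMSO, and the log2 fold changes were 1.68, 0.95 and 1.66 (adjusted p = 2.59e-12, 1.58e-09 and 3.6e-13). TP53INP1, the paralog of TP53INP2, was a rare transcript, at 0.161, 0.34 and 0.445 CPM in DMSO and 0.919, 1.32 and 1.23 in everolimus. It had 1.29, 0.84 and 1.36 CPM in SGI-1027 and 1.15, 0.878 and 0.973 in the combination. Its log2 fold changes were 1.86, 1.87 and 1.65 (adjusted p = 0.000113, 8.61e-05 and 0.000316). MAP1LC3C, the LC3C gene, was rarer still, with 0.268, 0.583 and 0.183 CPM in DMSO and 0.0521, 0 and 0.0789 CPM in the combination. It had 0.243, 0.269 and 0.444 CPM in everolimus and 0.227, 0.515 and 0.18 in SGI-1027. Neither single drug gave a call (log2 -0.13, 95% interval -1.21 to 0.94, and -0.2, -1.29 to 0.89). Its call in the combination (adjusted p = 0.00235) had a log2 value of -2.93 and rests on at most 24 counts in any library.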

How the data were processed

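RNA from 12 libraries of 786-O cells was sequenced. The files the authors deposited hold raw integer counts for each gene symbol and FPKM values (per gene length and library size) for the same genes. The published methods name TRIzol extraction and a stranded TruSeq library kit, whereas the sample records name RNeasy and a SMARTER kit. The aligner, counting program, strand setting of the counting and annotation are not given in the sources used here, and the submitters' processing notes name mouse builds (GRCm38, mm10) although the cells and symbols are human, so the build behind the counts is unknown. Exon overlaps (GENCODE 29) and promoter positions (RefSeq, GRCh38.p14) come from the reference and not from the files. The members and gene lists were chosen with earlier results of these data known.

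Counts were tested in R 4.3.3 with edgeR 4.0.16: filterByExpr by group (12841 of 17085 genes), TMM scaling, and 1 quasi-likelihood fit of all 12 libraries (prior count 0.125), with Benjamini-Hochberg adjustment over all tested genes and a threshold of 0.05. Intervals are 95%. Levels between genes were compared on FPKM. The script was tested on simulated data. Values per library were given for MAP1LC3B, SQSTM1, in each comparison with DMSO the 3 most raised and 3 most lowered called members whose libraries do not overlap, the 3 highest and 3 lowest interactions, every called member that moved by a log2 value of 1 or more against DMSO, and the 3 other pathway genes with the greatest change in the combination. Normalization, filters, fitted groups, DESeq2 1.42.0, limma 3.58.1 on log2 FPKM, a replicate block and single libraries were varied. RefSeq promoters were searched with Python 3.11.15. One gene of the marker check is not reported here.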

Additional observations from a re-analysis of the deposited data

Results flagged for a closer look

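In 24 members the effect of one drug differed in the presence of the other (interaction on the log2 scale, edgeR's quasi-likelihood test, adjusted p under 0.05). These were 58.5% of the 41 tested members, 48.8% below 0 and 9.76% above. Called interactions were common among all tested genes too, at 45.6%, with 22.1% below 0 and 23.6% above.

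Values below 0, where the combination stayed under the sum of both drugs, were found in 20 members. In the initiation complex they were -0.78 for ULK1, -0.61 for ATG13 and -0.57 for RB1CC1. In the PI3-kinase complexes they were -0.59 for ATG14, -0.46 for PIK3C3 and -0.19 for BECN1. Among membrane genes they were -0.87 for WDR45, -0.57 for WIPI1, -0.37 for WIPI2, -0.27 for ATG2A and -0.24 for VMP1. ATG10 was at -0.49, a call lost without DMSO replicate 1 or replicate 2 of any treated group (adjusted p up to 0.0907). In the ATG8 family GABARAPL1 was at -1.54 and GABARAP at -0.56. Among receptors NBR1 was at -0.63, OPTN at -0.42, TAX1BP1 at -0.37 and SQSTM1 at -0.19. At fusion, TP53INP2 was at -1.23 and STX17 at -0.41.

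Values above 0 were found in 4 members that fell after each single drug: 0.56 for ATG3, 0.48 for ATG101, 0.37 for ATG16L1 and 0.29 for CALCOCO2. The treatment protocol, unlike the sample characteristics and the published methods, gives everolimus alone a higher dose than the combination. If it is right, dose and combination cannot be told apart in these values.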

How the results depend on the processing

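At the study's cut-off (unadjusted p under 0.05 and an absolute log2 value of at least 1) the counts of members were 2 higher and 0 lower after everolimus, 2 and 0 after SGI-1027, 4 and 0 in the combination, 0 and 0 for the combination against either drug, and 0 above and 2 below for the interaction; a fold threshold was added, and most members moved by less. Members lower after everolimus numbered 4 with upper-quartile factors, which moved the median of all genes by 0.08. Members higher in the combination than in SGI-1027 numbered 11 with limma on log2(FPKM + 1), and the cause was not tested. Of 202 alternative counts, 181 stayed within 1.5 times.

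Without single replicates, higher and lower counts ranged over 23 to 23 and 6 to 8 for everolimus, 21 to 23 and 8 to 11 for SGI-1027, 21 to 23 and 7 to 8 for the combination, 6 to 9 and 5 to 6 against everolimus, 4 to 7 and 2 to 3 against SGI-1027, and 4 to 7 and 19 to 22 for the interaction. Lower calls against everolimus (8) were at 5 without everolimus replicate 1 or 3 or combination replicate 1 or 3. Higher calls against SGI-1027 (7) were at 4 without combination replicate 1 or 2, and higher interactions (4) at 7 without DMSO replicate 1.

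Same-numbered libraries did not deviate together (18 pairs, correlation -0.18 to 0.04), and 1 of 12 libraries lay closest to its own number. With the replicate block, counts were 23 and 9, 21 and 9, 23 and 8, 9 and 7, 6 and 3, and 4 and 20, in the same order. The block lost 3 calls, ATG9A against DMSO in the combination (adjusted p = 0.0629), BECN1 against everolimus (0.0737) and WIPI1 against SGI-1027 (0.054), and gained 0. Of 1235 alternative values for the 13 named members, 1193 kept direction and side of the threshold, 22 lost a call and 20 gained one, and 0 reversed.

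MAP1LC3A, at 0 to 6 counts per library, was too low for a comparison between groups at this depth.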
